A study of Mus musculus with 48 samples.

Results

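The genes of the cytosolic translation initiation factors (eIF1 to eIF6) and elongation factors (eEF1 and eEF2) were followed in nascent RNA of mouse embryonic stem cells. They were chosen by name alone: gene rows whose symbol begins with Eif1 to Eif6 or with Eef1 or Eef2, leaving out pseudogene rows (names with -ps) and the regulators whose symbols begin with Eif2ak, Eif4ebp or Eef2k. This gave 61 of 55376 gene rows. A gene was taken as expressed when its mean count over all libraries was at least 10-fold above background, and 52 of the 61 rows passed, among 8272 genes in all. One row, Eif2c5, carries an old symbol of an Argonaute gene and is not a translation factor gene. It did not pass.

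The line, TCF2.2, was derived and grown in serum-free 2i medium, and its strain is given as C57BL/6. Newly made RNA was tagged with 500 µM 4-thiouridine, a uridine analogue, during 5 min and pulled down through that tag. There were 4 groups of 2 libraries each, and the series text calls them biological duplicates. BRM014 blocks BRG1 and BRM, the ATPases of SWI/SNF, and was given at 10 µM for 3 h with DMSO for 3 h as its control. In the other pair, lentivirus carried an shRNA against Chd4, the ATPase of the NuRD complex, or a scrambled shRNA, and transduced cells stayed 24 h in 1.5 µg/mL puromycin. The DMSO and BRM014 cells received neither virus nor puromycin, so each comparison has its own control. The question, from the study's title, is how loss of SWI/SNF or NuRD activity bears on gene expression.

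As background, initiation begins when eIF2 brings the initiator tRNA to the small ribosomal subunit, and eIF2B reloads eIF2 with GTP for each new round. eIF3 is the large scaffold on the small subunit, the eIF4 proteins bind the mRNA cap and unwind the leader, eIF1, eIF1A and eIF5 set the start codon, and eIF5B joins the large subunit. In elongation eEF1A delivers aminoacyl-tRNAs, the eEF1B subunits recharge it, and eEF2 moves the ribosome along. Many of these genes are highly transcribed in growing cells, and several of their mRNAs, such as those of Eef1a1 and Eef2, begin with a pyrimidine tract through which mTOR signalling controls their translation.

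Libraries differed in depth and in background. Total gene counts lay between 11298835 and 17128981 in 6 libraries. The pair labelled Chd4 shRNA, r1 and r4, held 7461362 and 6982354. Background was read from 1434 receptor genes of the olfactory and vomeronasal organs, silent in most other cells, and took 11.9% and 13.6% of counts in those 2 libraries against 1.45% to 2.38% in the others. The row of Chd4 itself held 730 and 760 counts with Chd4 shRNA and 806 and 618 with scrambled shRNA, which was 0.57 ± 0.16 higher on the log2 scale relative to other expressed genes (adjusted p = 0.00532), so nascent RNA does not show the knockdown and the groups rest on their labels. All 10 stem cell markers were expressed, with summed levels of 2902 to 3451 CPM (counts scaled to a common library size) in the other libraries and 1827 to 1891 with Chd4 shRNA. None of 6 fibroblast markers passed the expression limit, and their sums were 6.08 to 10.7 CPM and 63.6 to 71.9 CPM. None of 5 endoderm or 4 mesoderm markers passed, 1 of 4 neural and 3 of 5 trophectoderm markers did, and each of these sums was highest with Chd4 shRNA. They were 20.1 to 23.6 CPM there for endoderm (3.79 to 5.48 elsewhere), 22.7 to 23.8 for mesoderm (4.30 to 6.62, with 1 marker at 0 with scrambled shRNA), 38.0 to 42.5 for neural (12.2 to 32.9) and 40.4 to 42.4 for trophectoderm markers (18.4 to 31.0). No background was taken from these sums. It was highest in the same 2 libraries, at 6.78 and 7.21 counts per kb of exon, and lay between 1.32 and 2.66 elsewhere. The part of background in the higher sums was not tested, nor was the part of these marker shifts in the results.

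All values were scaled among the 8272 expressed genes, so "higher" and "lower" mean relative to the typical expressed gene in the same library, not per cell. Values per library are CPM on that scale, fold changes are log2 ± standard error (SE), as are bare values in parentheses or beside a comparison, and the test was edgeR's quasi-likelihood test on all 8 libraries with Benjamini-Hochberg adjustment over the 8272 genes, called at an adjusted p under 0.05. Scaling to the ERCC spike-in RNAs, which were added by cell number, moved the median expressed gene of the Chd4 shRNA comparison by 0.19 (TMM among them) to 0.59 (their plain sums), and that of BRM014 by 0.14 with TMM. Scaling on genes that include the background moved the Chd4 shRNA median by -1.34.

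Levels of the 61 rows differed widely per length, from 0.190 for Eif2c5 to 807 for Eef1a1 in the mean over all libraries. They are given here as CPM per kb of exon, as mean ± SD over 2 libraries. Eef1a1 (chr9:78478449-78489151, minus strand, mm10), which encodes the main carrier of aminoacyl-tRNA, was highest in each group, with 911 ± 175 with DMSO, 1113 ± 59.4 with BRM014, 767 ± 7.45 with scrambled shRNA and 437 ± 13.8 with Chd4 shRNA. It alone held up to 30.4% of the counts of all members in a library. Next in the mean over all libraries came Eef1b2, a subunit of the exchange factor of eEF1A, with 316 ± 47.8 with DMSO and 196 ± 8.94 with Chd4 shRNA. Eif5a, the hypusine-bearing factor that helps stalled ribosomes, had 185 ± 14.6 with DMSO and Eef2, the translocase, had 177 ± 31.9, so these neighbours did not differ beyond their spread. Eif4a1, the main cap helicase, Eef1g, Eif3k, Eif3h, Eif1 and Eif3g followed, with means over all libraries from 102.6 down to 51.9. At the low end of the expressed members stood Eif5b at 3.51, Eef1akmt4 at 3.54, Eif3j1 at 4.07 and Eif4enif1 at 4.07. Members together took 0.574% to 1.22% of the counts of expressed genes in a library.

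**Figure D1:**
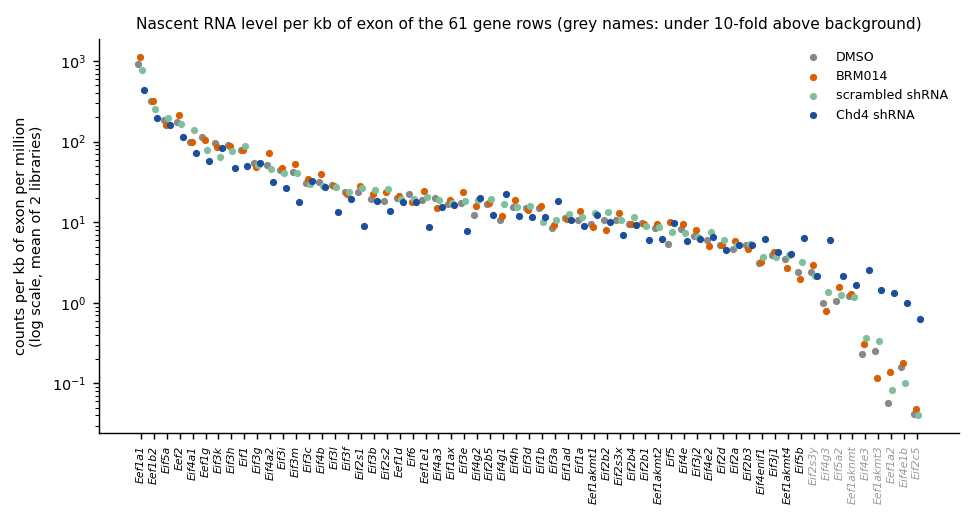
Nascent RNA level of each of the 61 gene rows in CPM per kb of exon (log axis), with 1 point per group for the mean of 2 libraries, ordered by the mean over all 8 libraries. Eef1a1 leads at 437 to 1113, and the 9 rows with grey names are those under 10-fold above background, where the Chd4 shRNA points lie above the others in most rows.

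With BRM014, few of these genes moved against DMSO. Of 52 expressed members 3 rose, namely Eif5, Eif4a2 and Eif3e, and 1 fell, Eif4a3, while over all 8272 genes 3.12% rose and 4.63% fell. The members' shares, 5.77% and 1.92%, are counts of 3 and 1 and lie near that background. At an unadjusted edgeR p under 0.05, 13 of the 52 members were higher and 5 lower, beside 853 and 910 of the 8272 genes. Their median log2 fold change was 0.09, beside 0.0050 over all expressed genes. On the ERCC scales edgeR called no member with BRM014 (at an unadjusted p under 0.05, 0 or 1 higher and 0 lower), and DESeq2 on its own scale called 3 higher and 0 lower.

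Eif5 (chr12:111538016-111546752, plus strand, mm10) encodes the GTPase-activating protein of eIF2 and had the largest rise. Its levels were 34.0 and 39.5 CPM with DMSO and 66.1 and 70.4 with BRM014, a 1.86-fold rise (log2 fold change 0.89 ± 0.13, adjusted p = 5.18e-05). Both treated libraries lay well above both controls. The call held when any 1 of the 8 libraries was left out, with a largest adjusted p of 0.00325. On the ERCC scales the fold change was 0.88 to 0.98 and did not pass (adjusted p = 0.265 with plain sums).

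The other 3 calls were smaller and lay close to the threshold. With any 1 library left out, fold changes were 0.41 to 0.53 for Eif4a2, 0.38 to 0.55 for Eif3e and -0.48 to -0.34 for Eif4a3. Eif4a2, a helicase paralog of Eif4a1, had 265 and 284 CPM with DMSO and 377 and 389 with BRM014 (0.48 ± 0.14, adjusted p = 0.0292). Eif3e, an eIF3 subunit, had 109.9 and 122 CPM with DMSO against 153 and 168 with BRM014 (0.47 ± 0.14, adjusted p = 0.0333). Eif4a3, the helicase paralog that works in the exon junction complex and not at the cap, had 40.7 and 43.5 CPM with DMSO against 32.9 and 30.5 with BRM014 (-0.41 ± 0.13, adjusted p = 0.0429). In each of these 3 genes the groups did not overlap. Among all 52 expressed members, called or not, 22 lay wholly above DMSO and 11 wholly below. Lack of overlap therefore adds little to these 3 calls. The share of all expressed genes without overlap was not counted, so the numbers above and below DMSO cannot be read as particular to the members. Each call was lost when BRM014 r1, BRM014 r2, Chd4 shRNA r1 or Chd4 shRNA r4 was left out, and also without DMSO r1 for Eif4a2 and Eif3e and without DMSO r2 for Eif4a3. DESeq2 did not call Eif4a3 (adjusted p = 0.102). Without DMSO r2 the number of members called higher was 14, and without DMSO r1 or any of those 4 libraries it was 1.

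By role, none of the 10 eIF2 and eIF2B genes, the 1 eIF5A gene and the 9 eEF genes was called with BRM014 by edgeR. At an unadjusted p under 0.05 there were 3 higher and 1 lower among the eIF2 and eIF2B genes, 0 and 0 for eIF5A, and 1 higher and 0 lower among the eEF genes, and DESeq2 called 0 in all of them. The 3 subunits of eIF2 had values above 0 without being called: Eif2s1 with 0.22 ± 0.14, Eif2s2 with 0.34 ± 0.14 and Eif2s3x with 0.31 ± 0.13. Eif2b2, a subunit of the exchange factor, had the lowest estimate among members, -0.42 ± 0.14, adjusted p = 0.0751. Of the elongation genes, Eef1a1 had 0.29 ± 0.17 and Eef2 had 0.29 ± 0.15, and the 2 DMSO libraries of Eef1a1 alone spanned 1962 and 2578 CPM.

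**Figure D2:**
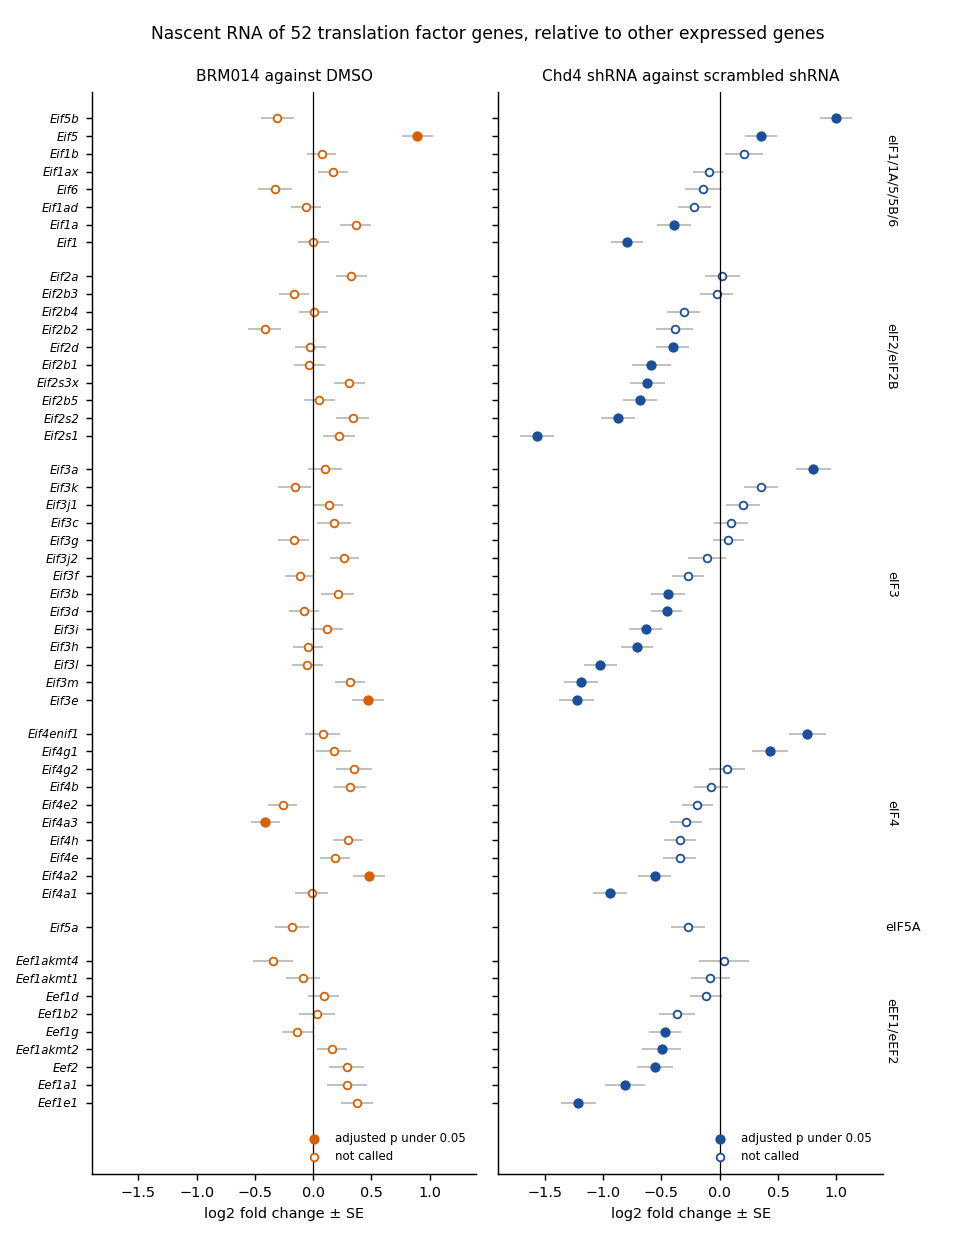
Log2 fold change (points) with its SE (bars) for the 52 expressed members, grouped by role, relative to other expressed genes; filled points passed an adjusted p of 0.05. Most points of the BRM014 panel lie near 0 apart from Eif5 at 0.89, while those of the Chd4 shRNA panel run from -1.57 (Eif2s1) to 1.00 (Eif5b); signs are on the expressed-gene scale and some turn on the spike-in scales or with background in the scaling.

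In the libraries labelled Chd4 shRNA, many more of these genes moved against scrambled shRNA, and mostly downward. Of 52 expressed members 22 fell and 5 rose, where over all 8272 genes 20.5% fell and 19.4% rose. The members' shares were 42.3% lower and 9.62% higher. In bulk RNA, fewer cells of a type and less RNA per cell cannot be told apart. The member median was -0.33 against -0.0062 for all expressed genes. The median turned to 0.28 on plain ERCC sums and to 0.19 on the abundant ERCC RNAs, scales that shift every gene alike and so leave the gap between members and other genes nearly as it was. That gap, -0.32 as fitted, was -0.21 with background subtracted in proportion to exon length and -0.18 at 30-fold above background. At 3-fold and at a mean count of at least 100 it was -0.28 and -0.26 against the genes that also pass the 10-fold limit. Against all genes of those fits it was wider, with member medians of -0.67 and -0.46 beside 0.076 and 0.029. With TMM among the ERCC RNAs edgeR called no member (at an unadjusted p under 0.05, 2 higher and 3 lower; DESeq2 on its own scale, 6 and 20), and with their plain sums 8 were higher and 1 lower. With background in the scaling 0 were higher and 52 lower. Leaving out 1 library gave 14 to 26 members lower, the 14 without Chd4 shRNA r1, and 3 to 6 higher, the 3 without scrambled r3, Chd4 shRNA r1 or Chd4 shRNA r4. Of the 27 calls, 16 held without any 1 of the 8 libraries.

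**Figure D3:**
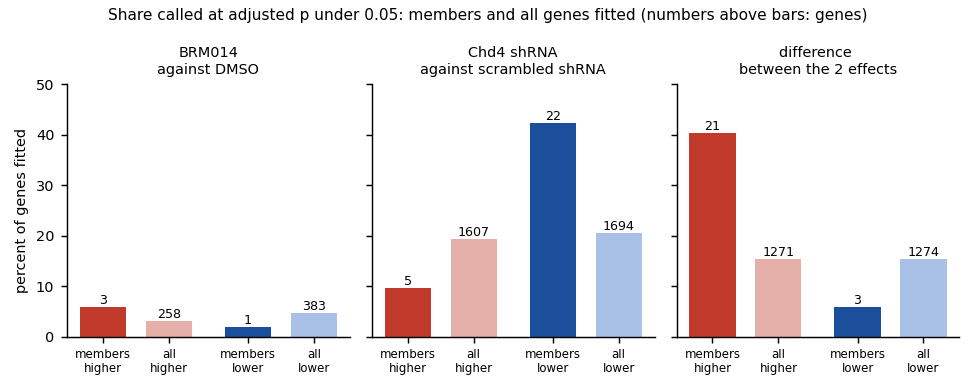
Percent of genes called higher or lower at an adjusted p under 0.05 (bars, numbers of genes above them) among the 52 expressed members and among all 8272 genes fitted, relative to other expressed genes. In the Chd4 shRNA panel 22 of 52 members were lower (42.3%) beside 20.5% of all genes; with spike-in or background-inclusive scaling these numbers change as given in the text.

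The eIF2 and eIF2B genes held the largest fall, and 60% of them were called lower beside 20.5% of all genes (0% and 19.4% higher). Of 10 expressed genes 6 were lower with Chd4 shRNA and 0 higher by edgeR (at an unadjusted p under 0.05, 8 and 0; by DESeq2, 5 and 0), with a median of -0.50. Eif2s1 (chr12:78861819-78887010, plus strand) encodes the alpha subunit, whose phosphorylation by stress kinases slows initiation. Its levels were 112 and 125 CPM with DMSO, 138 and 137 with BRM014, 117 and 146 with scrambled shRNA and 43.0 and 45.7 with Chd4 shRNA. Both Chd4 shRNA libraries lay far below every other library, a 2.97-fold fall (log2 fold change -1.57 ± 0.15, adjusted p = 2.47e-08).

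The beta and gamma subunits of eIF2 fell as well. Eif2s2 had 115 and 135 CPM with DMSO, 154 and 163 with BRM014, 162 and 183 with scrambled shRNA and 85.4 and 103 with Chd4 shRNA (-0.87 ± 0.15, adjusted p = 5.94e-05). Eif2s3x, the X-linked gamma subunit, had 41.6 and 39.2 CPM with scrambled shRNA and 25.0 and 27.6 with Chd4 shRNA (-0.62 ± 0.15, adjusted p = 0.00232), and its call was lost without Chd4 shRNA r1 (adjusted p = 0.0612). In all 3 the groups did not overlap. With Chd4 shRNA this was so for most of the 52 expressed members, with 35 wholly below scrambled shRNA and 8 wholly above. Lack of overlap therefore adds little to a call, here or for the genes below. For this comparison too the share of all expressed genes without overlap was not counted, so 35 and 8 cannot be read as particular to the members. Of eIF2B, Eif2b5, the catalytic epsilon subunit, went from 50.5 and 51.1 to 28.3 and 34.9 (-0.68 ± 0.15, adjusted p = 0.00073) and Eif2b1, the alpha subunit, from 22.3 and 24.7 to 13.8 and 17.4 (-0.59 ± 0.17, adjusted p = 0.00685). The Eif2b1 call was lost without scrambled r3 or Chd4 shRNA r1. Eif2b2, Eif2b3 and Eif2b4 were not called, at -0.39 ± 0.16, -0.03 ± 0.14 and -0.31 ± 0.14. Eif2d, a separate factor that can place initiator tRNA without eIF2, was called at -0.40 ± 0.14, adjusted p = 0.0282 and lost when any 1 of 4 libraries was left out or with DESeq2 (adjusted p = 0.0618), and Eif2a, likewise no subunit of eIF2, had 0.02 ± 0.15.

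eIF3 split between its subunits. Of 14 rows 7 fell and 1 rose, with a median of -0.36. These shares were 50% and 7.14%, beside 20.5% and 19.4% over all genes. Eif3e, Eif3m and Eif3l, which encode subunits of its structural core, had the largest falls. Eif3e had 109.9 and 122 CPM with DMSO, 153 and 168 with BRM014, 113 and 134 with scrambled shRNA and 49.1 and 56.3 with Chd4 shRNA (-1.23 ± 0.15, adjusted p = 1.08e-06). Eif3m had 111 and 106 CPM with DMSO, 131 and 139 with BRM014, 98.1 and 113 with scrambled shRNA and 44.6 and 47.9 with Chd4 shRNA (-1.19 ± 0.14, adjusted p = 1.01e-06). In both genes the Chd4 shRNA libraries lay below all 6 others. Eif3l went from 99.2 and 98.9 with scrambled shRNA to 47.2 and 50.2 (-1.02 ± 0.14, adjusted p = 6.31e-06), and Eif3h and Eif3i fell by 0.71 and 0.64. These 5 calls held without any 1 library.

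Against these, Eif3a (chr19:60761117-60790658, minus strand), the largest subunit and the scaffold of the complex, rose. It had 70.7 and 78.4 CPM with DMSO, 85.5 and 74.7 with BRM014, 107 and 79.0 with scrambled shRNA and 158 and 167 with Chd4 shRNA (0.80 ± 0.15, adjusted p = 0.000184). Both Chd4 shRNA libraries lay above all other libraries, and the call held without any 1 of them. With background subtracted the rise was 0.97. Eif3b and Eif3d were lower (-0.44 and -0.46), each lost without 1 of 3 libraries. The remaining 6 rows, Eif3c, Eif3f, Eif3g, Eif3j1, Eif3j2 and Eif3k, lay between -0.27 and 0.35 and were not called by edgeR. DESeq2 called Eif3k higher (0.37, adjusted p = 0.0242; edgeR adjusted p = 0.0542).

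**Figure D4:**
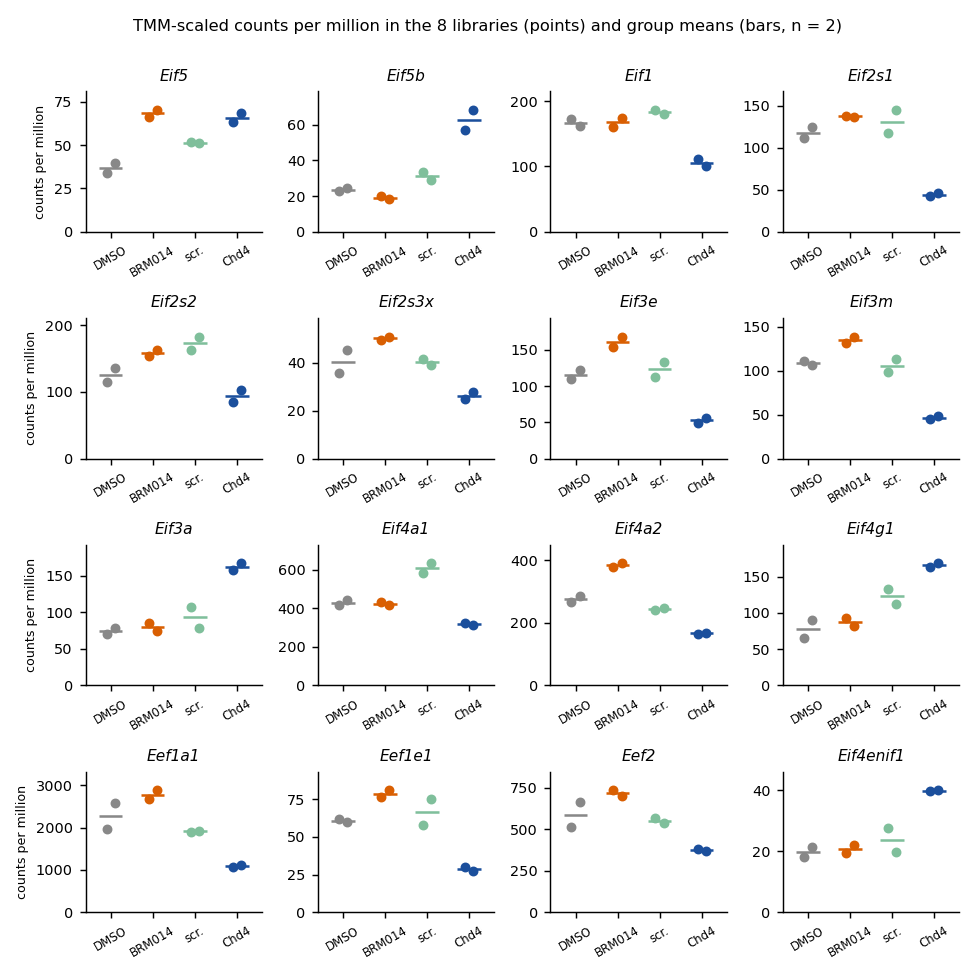
CPM of 16 members in each of the 8 libraries (points) with the group mean (horizontal lines, 2 libraries each), on axes that start at 0, scaled among expressed genes. For Eif2s1, Eif3e, Eif3m and Eef1e1 both Chd4 shRNA points lie below all other points, and for Eif5b, Eif3a and Eif4enif1 above them; the 3 rises turn to falls with background in the scaling.

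Among the eIF1, eIF1A, eIF5, eIF5B and eIF6 genes 2 of 8 were lower and 2 higher, counts near the shares over all genes (20.5% and 19.4%). Eif5b (chr1:37998010-38055579, plus strand), the GTPase that joins the large subunit, had the largest rise of all members. Its levels were 22.6 and 24.7 CPM with DMSO, 20.0 and 18.4 with BRM014, 33.6 and 29.2 with scrambled shRNA and 57.0 and 68.5 with Chd4 shRNA, a 2.00-fold rise (1.00 ± 0.14, adjusted p = 7.2e-06). The groups did not overlap, the call held without any 1 library, and the rise was 1.04 with background subtracted. Eif5b is the expressed member nearest to the background limit, at 10.3-fold over background, and it overlaps the opposite-strand gene Rev1 over 2794 bases. The Rev1 row held 88.4% as many counts and had a log2 fold change of 0.57. Whether the count was made by strand is not given in the sources used here, so this overlap cannot be told apart from Eif5b for the reads that fall in it.

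Eif1, which keeps the scanning ribosome from starting at a wrong codon, fell from 187 and 180.0 CPM with scrambled shRNA to 111 and 100.1 (-0.80 ± 0.14, adjusted p = 8.57e-05). Eif5 rose from 51.5 and 51.3 to 63.1 and 68.5 (0.36 ± 0.14, adjusted p = 0.0404), the only member higher in both comparisons. This second rise was lost when any 1 of 5 libraries was left out, and at a limit of 3-fold above background it was -0.028. Eif1a was called at -0.39 ± 0.15, adjusted p = 0.0359 and was lost in 5 of 8 such fits and with DESeq2 (adjusted p = 0.0709). Eif6, which keeps free subunits apart, had -0.14 ± 0.16 and was not called.

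Of the eIF4 genes, 2 of 10 fell and 2 rose, shares near the 20.5% and 19.4% over all genes. Both that fell are the cap helicases. Eif4a1 had 415 and 441 CPM with DMSO, 433 and 415 with BRM014, 584 and 632 with scrambled shRNA and 322 and 313 with Chd4 shRNA (-0.94 ± 0.15, adjusted p = 2.25e-05). Eif4a2 had 242 and 247 with scrambled shRNA and 166 and 167 with Chd4 shRNA (-0.56 ± 0.14, adjusted p = 0.0026). Both held without any 1 library, and their groups did not overlap. Rising were Eif4enif1, which carries eIF4E into the nucleus and represses cap-bound mRNAs, and Eif4g1, the scaffold that joins cap, helicase and eIF3. Eif4enif1 had 27.5 and 19.7 CPM with scrambled shRNA against 39.6 and 40.0 with Chd4 shRNA (0.75 ± 0.16, adjusted p = 0.000504). Its opposite-strand neighbour Drg1 overlaps it and held 252% as many counts, with a fold change of -0.09. Eif4g1 had 64.8 and 89.6 CPM with DMSO, 93.1 and 81.5 with BRM014, 134 and 112 with scrambled shRNA and 163 and 168 with Chd4 shRNA (0.43 ± 0.15, adjusted p = 0.0286), and its call was lost without scrambled r3, Chd4 shRNA r1 or Chd4 shRNA r4. Eif4e, the cap-binding protein itself, had 43.5 and 44.5 CPM with scrambled shRNA against 33.8 and 35.6 with Chd4 shRNA, groups that did not overlap, with -0.34 ± 0.14, adjusted p = 0.0593. Eif4b and Eif4h, the helicase cofactors, had -0.07 ± 0.14 and -0.34 ± 0.14.

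Of the eEF1 and eEF2 rows, 5 fell with Chd4 shRNA and 4 were not called, and 2 of the 5, Eef1e1 and Eef1akmt2, encode proteins that are not elongation factors themselves. Of 9 expressed rows 5 were lower and 0 higher by edgeR, with a median of -0.47 (at an unadjusted p under 0.05, 6 and 0, and by DESeq2, 5 and 0). The edgeR shares were 55.6% and 0%, beside 20.5% and 19.4% over all genes. Eef1a1 had 1962 and 2578 CPM with DMSO, 2671 and 2879.9 with BRM014, 1899 and 1925 with scrambled shRNA and 1066 and 1114 with Chd4 shRNA (-0.81 ± 0.17, adjusted p = 0.000634). Eef2 had 514 and 664 CPM with DMSO, 735 and 701 with BRM014, 567 and 539 with scrambled shRNA and 384 and 369 with Chd4 shRNA (-0.55 ± 0.16, adjusted p = 0.00637), and with background subtracted its adjusted p was 0.0874. Each Chd4 shRNA library lay below every other library in both genes. Eef1e1, named for eEF1 but best known as a scaffold of the complex of aminoacyl-tRNA synthetases, had 61.7 and 59.6 CPM with DMSO, 76.6 and 80.9 with BRM014, 57.9 and 75.1 with scrambled shRNA and 29.8 and 27.6 with Chd4 shRNA (-1.21 ± 0.15, adjusted p = 1.82e-06). Eef1g, of the exchange factor, was at -0.47 ± 0.14, adjusted p = 0.0083, and the methyltransferase gene Eef1akmt2 at -0.50 ± 0.17, adjusted p = 0.0198; Eef2, Eef1g and Eef1akmt2 each lost the call without 1 of 3 libraries. Eef1b2 (-0.37 ± 0.16) and Eef1d (-0.12 ± 0.14), the other exchange subunits, were not called by edgeR. DESeq2 called Eef1b2 lower (adjusted p = 0.0410) and did not call Eef1akmt2 (adjusted p = 0.0834).

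Both comparisons were set against each other in 1 test of their difference, the BRM014 effect minus the Chd4 shRNA effect. It was higher for 21 of 52 members and lower for 3, with 15.4% higher and 15.4% lower over all 8272 genes and a member median of 0.38 against 0.0054. Without Chd4 shRNA r1 the number higher was 13, and without scrambled r3 or Chd4 shRNA r4 the number lower was 1. On the ERCC scales edgeR called none higher (4 at an unadjusted p under 0.05) and 0 to 3 lower, and DESeq2 on its own scale called 18 higher and 4 lower. The member median of the difference turned to -0.25 with plain ERCC sums and to -0.10 with the abundant ERCC RNAs. Eif2s1 had the largest difference, 1.79 ± 0.20, adjusted p = 7.66e-07, followed by Eif3e at 1.70 ± 0.20, adjusted p = 1.5e-06, Eef1e1 at 1.59 ± 0.20 and Eif3m at 1.51 ± 0.19. The 3 lower ones were Eif5b (-1.30 ± 0.20, adjusted p = 3.11e-05), Eif3a (-0.70 ± 0.21, adjusted p = 0.0135) and Eif4enif1 (-0.67 ± 0.21, adjusted p = 0.0191). With background in the scaling these 3 turned to 0.09, 0.70 and 0.73, and the last 2 passed as higher. The members Eif3e and Eif4a2 passed the test in opposite directions, higher with BRM014 and lower with Chd4 shRNA, and their differences were 1.70 and 1.04. Eif5 rose in both, and the difference of 0.54 ± 0.19 (adjusted p = 0.0334) was lost in 7 of 8 fits that left out a library and with DESeq2 (adjusted p = 0.0553). The 2 treatments also differ in duration and in virus and selection, which cannot be told apart from the target in this difference. Of the 24 differences called, 14 held without any 1 library.

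Paralogs of the same factor did not all take the same values. Eif1b, the close copy of Eif1, had 10.3 and 12.4 CPM with scrambled shRNA and 13.2 and 13.0 with Chd4 shRNA (0.21 ± 0.17, not called). Eif1ax, the X-linked copy of Eif1a, was at -0.09 ± 0.13. Eif3j1 and Eif3j2 were at 0.20 ± 0.14 and -0.11 ± 0.16 with Chd4 shRNA and at 0.13 ± 0.13 and 0.27 ± 0.13 with BRM014. Among the helicases only Eif4a3 was called lower with BRM014 and only Eif4a2 higher, and Eif4a1 had -0.01 ± 0.14; the differences between these genes were not tested. Eif4g2, a scaffold relative that lacks the cap-binding part, had 201 and 184 CPM with scrambled shRNA against 184 and 218 with Chd4 shRNA, with 0.06 ± 0.16, and Eif4e2 had -0.19 ± 0.13. Eif5a, with 447 and 483 CPM with scrambled shRNA against 399 and 371 with Chd4 shRNA, had -0.27 ± 0.15. The handling of reads that map to several places is not given in the sources used here. Values of Eef1a1, Eif4a1, Eif1 and other members with close copies or pseudogenes are therefore uncertain to that extent.

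There were 9 rows under the expression limit. Eef1a2, the muscle and neuron form of eEF1A, held 2 and 2 counts with DMSO and 17 and 17 with Chd4 shRNA, where background of its exon length would give 14.1 and 15.0. Eif4e1b, Eif4e3, Eef1akmt3 and Eif2c5 were at 0.423-fold to 2.07-fold of background. Eif4g3, the third eIF4G gene, was at 5.80-fold. It held 179 and 194 counts with DMSO, 110 and 152 with BRM014, 144 and 121 with scrambled shRNA and 418 and 398 with Chd4 shRNA, where background would give 75.0 and 79.7 in the last pair. In a fit without the expression limit its log2 fold change with Chd4 shRNA was 2.13 ± 0.14, beside a median of 2.01 over all rows, 58.6% of which were called higher. The Y-linked Eif2s3y, at 8.80-fold, held 72 and 85 counts with scrambled shRNA against 58 and 52 with Chd4 shRNA, with -0.01 ± 0.21 in that fit. Eif5a2 and Eef1aknmt were at 4.87-fold and 4.55-fold of background.

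Promoters are shown for 4 members that moved with Chd4 shRNA and whose start in the RefSeq table lies at, or just upstream of, the start in the deposited annotation. Other members that moved also meet this rule and are not shown, among them Eif2b1 and Eif2b5, which fell. Each line gives the 250 bases before the start, 5′ to 3′ on the gene's strand, from RefSeq (GRCm38.p6). Capitals mark matches, on either strand, to the motifs searched: E-box CACGTG, ATF4-C/EBP element TGATGNAA, ETS site CCGGAAGT, CRE TGACGTCA, NRF1 core GCATGCGC and TATA box TATAAA. Eef2 (chr10:81176381-81176630, plus strand) and Eif4a1 (chr11:69672424-69672673, minus strand) fell, and Eif5b (chr1:37997760-37998009, plus strand) and Eif3a (chr19:60790694-60790943, minus strand) rose.
Eef2: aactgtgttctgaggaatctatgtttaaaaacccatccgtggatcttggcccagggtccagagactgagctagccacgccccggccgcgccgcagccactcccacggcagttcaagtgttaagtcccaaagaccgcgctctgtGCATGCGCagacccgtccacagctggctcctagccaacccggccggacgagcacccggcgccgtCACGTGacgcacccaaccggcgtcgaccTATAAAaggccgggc
Eif4a1: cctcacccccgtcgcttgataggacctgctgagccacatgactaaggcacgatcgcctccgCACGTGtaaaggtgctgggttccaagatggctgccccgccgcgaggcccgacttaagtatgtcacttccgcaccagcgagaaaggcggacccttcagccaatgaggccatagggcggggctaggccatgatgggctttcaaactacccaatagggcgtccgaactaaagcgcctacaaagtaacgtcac
Eif5b: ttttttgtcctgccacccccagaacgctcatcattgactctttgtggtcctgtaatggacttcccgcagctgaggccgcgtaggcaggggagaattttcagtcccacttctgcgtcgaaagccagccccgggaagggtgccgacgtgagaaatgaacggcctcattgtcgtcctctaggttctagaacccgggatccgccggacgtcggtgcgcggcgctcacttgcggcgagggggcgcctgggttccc
Eif3a: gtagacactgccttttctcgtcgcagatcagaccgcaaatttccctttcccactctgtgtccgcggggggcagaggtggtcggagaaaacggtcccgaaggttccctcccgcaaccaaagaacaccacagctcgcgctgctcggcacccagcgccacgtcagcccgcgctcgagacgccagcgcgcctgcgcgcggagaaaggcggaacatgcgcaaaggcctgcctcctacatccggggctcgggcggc
Eef2 held an NRF1 core 107 bases, an E-box 43 bases and a TATA box 15 bases before the start, and Eif4a1 an E-box 189 bases before it. A CRE in Eef2 and an E-box in Eif3a lie 3 and 23 bases after the start, outside the lines shown, and the lines of Eif5b and Eif3a hold no match. Eif2b1 and Eif2b5, not shown, hold no match either. Eef2 and Eif4a1 are the only 2 of 17 members that fell and had a promoter to hold an E-box. Eif4g1, which rose and is not shown, held an E-box 54 bases before its RefSeq start. These 4 lines therefore do not tie a motif to a direction.

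Promoters of 300 bases (250 before and 50 after the start) were found for 47 of the 61 members, 59 promoters in all. An E-box was in 25.4% of these and in 7.15% of all 32851 promoters in the table, an ETS site in 16.9% and 3.89%, an NRF1 core in 8.47% and 2.71%, and a TATA box in 8.47% and 13.6%. The CRE was in 1.69% and 1.79%, and the ATF4-C/EBP element in 1.69% and 3.97%. The E-box is the letters bound by MYC and its relatives, and 13 member genes held it, among them Eif4e with 2 matches. Of 17 members that fell with Chd4 shRNA and had a promoter, 2 held an E-box, 2 an ETS site and 3 an NRF1 core. These shares describe letters, not binding, and some genes have several overlapping promoters in the table.

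Gene size and level were set beside the fold changes. With Chd4 shRNA the 5 members that rose had exon lengths of 6.37 to 9.75 kb and a median gene span of 29.5 kb, and the 22 that fell had a median exon length of 3.49 kb and a median span of 16.1 kb. Over all genes those that rose were also the longer ones. Their medians were 3.175 kb of exon and 15.6 kb of span, beside 2.23 kb and 7.93 kb for those that fell. With the 8044 expressed genes that have a span put in 4 groups of like number by it (228 have none), 32.2% of the longest group rose and 14.7% fell, and of its 16 members 4 rose and 7 fell. The shortest group held 0 members, and 16.4% of it rose and 12.8% fell. In the 2 groups between, 14.6% and 14.8% rose and 28.5% and 25.2% fell. Of their 14 and 22 members, 0 and 1 rose and 4 and 11 fell. Across the 52 members Spearman's rho of the Chd4 shRNA fold change was -0.43 with mean level per kb, 0.22 with exon length and 0.09 with span. Over all genes these were -0.27, 0.06 and 0.08. For BRM014 the rho was 0.06 with level, 0.37 with exon length and 0.18 with span across members, and -0.04, 0.14 and 0.15 over all genes. Genes share libraries and depth and are not independent.

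Some member rows contain or overlap other rows. Of the 52 expressed members 7 overlap a row with at least 50% as many counts, 6 of them only on the opposite strand: beside Eif5b and Eif4enif1 the partners include Banf1 at Eif1ad, Serp1 at Eif2a, Snx17 at Eif2b4 and Spg11 at Eif3j1. Of 9 rows typed by RefSeq as small nucleolar RNA (snoRNA) that lie within members on the same strand, 8 were expressed, in 6 hosts. With BRM014, 2 of these were lower, Snora41 within Eef1b2 (-1.25) and Snord2 within Eif4a2 (-0.87), and 0 higher by edgeR; of the hosts, Eif4a2 was higher and Eef1b2 was not called. With Chd4 shRNA Snora81 within Eif4a2 was higher by 2.10, Snord2 in the same host was at -1.15 and Gm25835 within Eif4a1 at -1.01, both lower. Over all genes 3.12% rose and 4.63% fell with BRM014, and 19.4% and 20.5% with Chd4 shRNA. Rows without a RefSeq type are not in this count. Of those, Gm26447 (-1.30) and Gm24616 (-0.71) within Eif4a2 were lower with BRM014. With Chd4 shRNA Gm49346 within Eif4a2 (2.17) and Gm22988 within Eif4a1 (0.71) were higher, and Gm26447 (-0.91) and Gm26377 within Eef1a1 (-0.91) lower. These genes were chosen after their values were seen.

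Other genes of the pathway were read from 4 lists. Of 23 regulators of initiation and elongation 11 were expressed, and 2 rose with BRM014 and 0 fell by edgeR (at an unadjusted p under 0.05, 3 and 0; by DESeq2, 1 and 0). Ppp1r15b, the subunit that directs dephosphorylation of eIF2 alpha, had 22.1 and 31.0 CPM with DMSO and 43.0 and 36.7 with BRM014 (0.58 ± 0.15, adjusted p = 0.0141). Paip1, a partner of poly(A)-binding protein, had 15.4 and 18.2 CPM with DMSO against 24.6 and 21.7 with BRM014 (0.46 ± 0.13, adjusted p = 0.0294), and DESeq2 did not call it (adjusted p = 0.156). With Chd4 shRNA 2 rose and 0 fell (unadjusted, 4 and 1, and by DESeq2, 2 and 0). Over all genes 19.4% rose and 20.5% fell with Chd4 shRNA, so 2 of 11 higher lies near that share. For BRM014 the shares over all genes were 3.12% higher and 4.63% lower. The counts in all 4 lists are small and were not tested against these shares. Larp1, which binds and represses mRNAs with the pyrimidine tract, went from 60.4 and 49.1 with scrambled shRNA to 88.4 and 101 (0.79 ± 0.15, adjusted p = 0.00029). Eif4ebp1, the mTOR-regulated inhibitor of eIF4E, went from 385 and 403 to 515 and 503 (0.37 ± 0.14, adjusted p = 0.0445).

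Of 11 termination, recycling and reinitiation genes 8 were expressed. None passed with BRM014 (edgeR; unadjusted 2 higher, DESeq2 0), and with Chd4 shRNA Hbs1l, a ribosome rescue factor, rose at 0.42 ± 0.15, adjusted p = 0.026 and Mcts1, a reinitiation factor, fell at -0.63 ± 0.16, adjusted p = 0.00311. DESeq2 did not call Hbs1l (adjusted p = 0.0584). Hbs1l lay at 12.1-fold over background. It held 158 and 172 counts with Chd4 shRNA, where background of its exon length would give 41.0 and 43.6. With scrambled shRNA it held 188 and 162 counts, where background would give 8.01 and 11.1. Its value with background subtracted is not given here. Of 8 enzymes that modify eIF5A or eEF2 5 were expressed, and with Chd4 shRNA Dohh (-0.62 ± 0.16, adjusted p = 0.00292) and Dhps (-0.52 ± 0.15, adjusted p = 0.00684), which make the hypusine of eIF5A in sequence, both fell. None passed with BRM014 (unadjusted 0, DESeq2 0). Of 9 mitochondrial translation factors 6 were expressed, and Mtif3 (-0.42 ± 0.15, adjusted p = 0.0315) and Tsfm (-0.45 ± 0.16, adjusted p = 0.0332) fell with Chd4 shRNA by edgeR and in 0 cases by DESeq2, while none passed with BRM014 (unadjusted 0, DESeq2 0).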

How the data were processed

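The authors deposited whole-number counts per gene (55376 gene rows and 92 spike-in RNAs of the ERCC set). The submitters' processing notes name Trim Galore 0.6.4, STAR 2.7.1a, featureCounts, edgeR 3.32.1 and the mm10 build. The strand setting, the treatment of multi-mapping reads and the annotation are not given in the sources used here. The libraries are of a stranded kit, per the labels' protocols. The 40 ChIP samples of the series are not analysed here.

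Groups came from the sample labels. Columns r3 (scrambled) and r4 (Chd4 shRNA) match no title, so only their group is known, from the column name. The members, gene lists, motifs and tests were chosen with earlier results of these data known. Background was measured as counts per kb over 1434 olfactory and vomeronasal receptor genes (5330.3 kb of exon). Genes at least 10-fold above it were fitted with edgeR 4.0.16 in R 4.3.3 (quasi-likelihood F test, TMM scaling of those genes, group as the only term, all 8 libraries, SE from the F statistic). With 2 libraries a group, an exact two-sided permutation test of 1 value cannot go below 0.333. Where cultures behind the duplicates are not described, p-values measure the spread between these libraries. Duplicates differed beyond counting noise in every group (chi-square per degree of freedom 4.78 to 65.9). All 37 mitochondrial rows hold 0 counts.

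Values per library were given for up to 8 members with the smallest p in each direction and comparison, up to 3 per role, the paralog sets, and up to 3 called genes per pathway list. Other genes were chosen after their values were seen. Alternatives were DESeq2 1.42.0, other scalings, other filters, background subtraction, a replicate block, the 4 libraries of a comparison fitted alone, and leaving out each library. Added after seeing the data were 2 more: TMM among 7 ERCC RNAs with a mean of at least 50 counts, and a crossed block. The code was tested on simulated data. Figures were drawn with matplotlib 3.10.9.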

Additional observations from a re-analysis of the deposited data

How the results depend on the processing

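Numbers below are higher and lower calls of edgeR unless named. With ERCC sizes from TMM among the 92 RNAs, members called were 0 and 0 in the BRM014 comparison, the Chd4 shRNA comparison and their difference (at an unadjusted p under 0.05: 0 and 0, 2 and 3, 4 and 0; DESeq2 on its own scale: 3 and 0, 6 and 20, 18 and 4), all genes 0 and 0, 57 and 6, 1 and 23, and member medians 0.21 (BRM014) and -0.135 (Chd4 shRNA). With plain ERCC sums members were 0 and 0, 8 and 1, 0 and 3, all genes 11 and 93, 2836 and 62, 22 and 1341, and the Chd4 shRNA median 0.28. With TMM among the abundant ERCC RNAs members were 0 and 0, 4 and 1, 0 and 1, all genes 8 and 43, 1678 and 51, 10 and 452, and medians 0.14 and 0.19. With background in the scaling members were 4 and 0, 0 and 52, 51 and 0, all genes 395 and 284, 54 and 7554, 7147 and 68, and medians 0.15 and -1.66.

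DESeq2 called 96 and 201 of all genes with BRM014. Without a filter, members were 1 and 0, 14 and 25, 21 and 8, all genes 103 and 324, 31704 and 1815, 1335 and 22493, with a Chd4 shRNA median of -0.22. At 3-fold above background they were 4 and 0, 4 and 40, 36 and 2, all genes 503 and 763, 3931 and 4019, 3378 and 3203, median -0.67. At 30-fold (40 members) they were 2 and 0, 5 and 14, 14 and 3, all genes 52 and 205, 891 and 828, 634 and 750, median -0.20. At a mean count of at least 100, 2736 genes were higher with Chd4 shRNA and 2286 lower in the difference, and the Chd4 shRNA median was -0.46. With background subtracted, 0 members fell with BRM014 and the Chd4 shRNA median was -0.21. On its own 4 libraries BRM014 had 1 and 2. The difference has no such fit.

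The shared r1 labels do not establish pairs. Deviations of r1 libraries correlated at -0.157 between BRM014 and DMSO and at 0.0551 between the shRNA groups. With a replicate block, members called were 1 and 0, 4 and 20, 19 and 3. With BRM014 r1 crossed to DMSO r2, they were 3 and 1 with BRM014 and 22 and 4 in the difference.

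Leaving out each library in turn, all genes ranged over 85 to 738 higher and 141 to 653 lower with BRM014, 1048 to 1906 and 1048 to 1940 with Chd4 shRNA, and 727 to 1560 and 886 to 1509 in the difference. Members ranged over 1 to 14 and 0 to 1, 3 to 6 and 14 to 26, and 13 to 27 and 1 to 4, with medians of 0.029 to 0.10 and -0.33 to -0.27.

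For single genes in the BRM014 and Chd4 shRNA comparisons, 14 of 1134 values changed sign while passing in at least 1 of the settings compared, all with Chd4 shRNA. With background in the scaling Eif1b was -1.12, Eif5 -0.98, Eif5b -0.34, Eif3a -0.54, Eif3j1 -1.14, Eif4enif1 -0.58, Eif4g1 -0.91 and Eif4g2 -1.28. With plain ERCC sums Eif1a was 0.25, Eif2s3x 0.0034, Eif4a2 0.059 and Eef2 0.058. With the abundant ERCC RNAs Eif1a was 0.16, and at 3-fold above background Eif5 was -0.028. Of the others 979 kept their side of the threshold, 109 lost it and 32 gained it. In the Chd4 shRNA comparison the median expressed gene lay at -1.34 with background in the scaling. It lay at 0.59 with plain ERCC sums and at 0.50 with the abundant ERCC RNAs. Causes of the turns were not tested. Of the called differences, Eif5b, Eif3a and Eif4enif1 turned sign with background in the scaling (0.09, 0.70, 0.73), and Eif3b, Eif4e and Eif5 with plain ERCC sums (-0.0056, -0.10, -0.10). The Chd4 shRNA libraries have the fewest counts and the most background, and the share of each in these limits was not tested.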
